A study of Mus musculus with 9 samples.

Results

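The Bcl2 family sets whether a cell commits to death through its mitochondria, and 10 of its genes were followed here through the spontaneous transformation of mouse ovarian surface epithelial (MOSE) cells. The genes were chosen by symbol: the pro-survival members Bcl2, Bcl2l1, Bcl2l2 and Mcl1, and the pro-death members Bax, Bak1, Bid, Bcl2l11, Bbc3 and Pmaip1. A probe set, the group of short probes that reports 1 transcript on the array, was taken where the array's annotation gave a member as its single gene. This rule found 31 of the 45101 probe sets and 9 of the 10 genes. No probe set named Bax alone, and Bax was not analysed here, so that 4 pro-survival and 5 pro-death genes remained.

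Total RNA of MOSE cultures was measured on 9 arrays (Affymetrix Mouse Genome 430 2.0). The cells came from the ovarian surface of C57BL6 mice and transformed in culture without an added oncogene or agent, and all were kept in the same serum-containing medium with insulin, transferrin and selenite. The 3 groups compared had 3 arrays each: MOSE-E, the non-malignant early passages 13, 14 and 15; MOSE-I, the intermediate passages 63, 71 and 73; and MOSE-L, the malignant late passages 136, 142 and 143. The replicates of a stage are neighbouring passages of 1 cell series, so the p-values measure the spread between these cultures and not between independent transformations, and passage number cannot be told apart from stage.

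In mammalian cells the family works by binding between its own members on the outer mitochondrial membrane. Pro-survival proteins hold the pore-forming effectors Bax and Bak1 in check. BH3-only proteins, named after the single homology segment they share with the others, are raised or activated by stress, bind the pro-survival proteins or the effectors, and so release the effectors to open the membrane and let out cytochrome c, which assembles the caspase-activating apoptosome. Much of this control acts on the proteins through cleavage, phosphorylation and degradation, which an mRNA array does not measure. In human ovarian cancer cells, Bcl-xL and Mcl1 are known for blunting the response to platinum drugs.

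Of the 5 measured pro-death genes, 3 were called between MOSE-L and MOSE-E, 1 higher and 2 lower, and 1 between MOSE-I and MOSE-E. MOSE-L cells had less Bak1 (log2 change -1.05 ± 0.28, SE) and Pmaip1 (-1.17 ± 0.21) than MOSE-E cells and more Bcl2l11 (1.18 ± 0.29). MOSE-I cells had more Bid than MOSE-E cells (1.16 ± 0.19). In MOSE-L cells the brightest Bid probe set was back near its MOSE-E signal, and a second was above its own by 0.66 (adjusted p 0.151, not called). No pro-survival gene was called in any of the 3 comparisons. Bcl2 met the p threshold between MOSE-L and MOSE-E (adjusted p 0.0426) but its log2 change of 0.88 fell short of the minimum. With probe sets of every signal fitted, its adjusted p was 0.0829. Of all tested genes, 15.6% (MOSE-L over MOSE-E), 5.90% (MOSE-I over MOSE-E) and 13.4% (MOSE-L over MOSE-I) were called. With so few members, nothing particular to either class is read from these counts. In these whole-culture samples, fewer cells that express a gene and less RNA per cell cannot be told apart.

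Signals are linear, have no unit, and were scaled so that the trimmed mean of every array is 500. They cannot be set against each other between genes, because probes differ in how strongly they bind, so each gene is compared only with itself. Changes are differences of log2(signal + 50) between stages, a scale that understates the fold of dim genes, with SE from 1 limma fit over all 9 arrays. The fit took the 13845 probe sets, of 7952 genes, whose highest signal exceeded 500, and the Benjamini-Hochberg adjustment ran over all of them. A call needed both an adjusted p no higher than 0.05 and a log2 change of 1 or more in size. Of the 31 member probe sets, 18 passed this filter and 13 did not. Each of the 9 genes kept at least 1, and the one with the highest mean signal is its lead. Bcl2 and Bbc3 entered only through MOSE-L arrays (2 arrays for Bcl2 and 1 for Bbc3 were over 500). The lead of Bcl2l11 had no MOSE-E array over 500, and the leads of Bak1 and Pmaip1 had no MOSE-L array over 500. These leads thus passed without any array of the stage where they are lowest. Fitted by limma without a filter, their adjusted p between MOSE-L and MOSE-E were 0.0293 (Bcl2l11), 0.0406 (Bak1) and 0.00613 (Pmaip1).

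The arrays were not equally alike. Replicate 3 of MOSE-L correlated at 0.889 and 0.907 with the other 2 arrays of its stage, against 0.934 between those. Its ratio of 3′ to 5′ signal for the β-actin control probes was 1.83, against 1.12 to 1.45 on the other 8 arrays. For the Gapdh control probes the ratio was not raised on that array (0.727, against 0.735 to 0.81 on the other 8). MOSE-E replicate 1 and MOSE-I replicate 1 also stood somewhat apart. Calls between stages that turn on these arrays are given with and without them. All 8 markers of ovarian surface epithelium passed the filter, with summed signals of 65284 to 69068 (MOSE-E), 49901 to 63883 (MOSE-I) and 42997 to 61936 (MOSE-L), and 4 of them were called lower in MOSE-L than in MOSE-E. All 6 leukocyte and all 4 endothelial markers stayed under 500 on every array. Of 5 fibroblast markers, which cultured surface epithelium also expresses in part, 4 passed the filter. Between MOSE-L and MOSE-E, Col1a1 and Col1a2 were called lower and Dcn higher, and Pdgfra was not called. The sums over the 5 were 35196 to 79604 (MOSE-E), 20374.0 to 61486 (MOSE-I) and 22623 to 32736 (MOSE-L). The part of this shift in the member changes was not tested.

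Upstream sequences are shown for the 2 called genes whose window lay outside their own annotated span, one lower and one higher in MOSE-L. Both are the 250 bases before the annotated start in RefSeq (GRCm38.p6), 5′ to 3′ on the gene's strand, at chr17:27028628-27028877 (minus strand) for Bak1 and chr2:128125788-128126037 (plus strand) for Bcl2l11. Capitals mark matches, on either strand, to any of 6 motifs: the GC box, the CCAAT box, the TATA box, an E-box, a forkhead core and an E2F motif.
Bak1 upstream: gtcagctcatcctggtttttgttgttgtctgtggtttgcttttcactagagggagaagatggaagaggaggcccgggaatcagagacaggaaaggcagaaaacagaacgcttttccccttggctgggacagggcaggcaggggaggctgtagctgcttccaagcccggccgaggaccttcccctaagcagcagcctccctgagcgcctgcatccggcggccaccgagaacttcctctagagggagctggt
Bcl2l11 upstream: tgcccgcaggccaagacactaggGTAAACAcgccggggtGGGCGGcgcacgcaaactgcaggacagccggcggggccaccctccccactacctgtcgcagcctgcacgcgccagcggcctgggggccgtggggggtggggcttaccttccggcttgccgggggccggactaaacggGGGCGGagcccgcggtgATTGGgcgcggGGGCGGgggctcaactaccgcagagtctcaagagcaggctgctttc
The Bcl2l11 window held 3 copies of the GC box GGGCGG, which occurs in 32.7% of 32851 windows of this length, and 1 of CCAAT (33.8%), shown as its reverse complement. It also held 1 copy of GTAAACA, the core recognised by forkhead factors such as Foxo3, which is in 3.17% of windows. A window of Bbc3, which was not called, held 1 copy too, and the other Bcl2l11 window, not shown, held none. The Bak1 window matched none of the 6 motifs, which says only that these letters are not in these bases. The TATA box TATAAA is in 12.4% of windows, the E-box CACGTG in 6.02% and the E2F motif TTTNGCGC in 1.13%. The GC content was 58.4% for Bak1 and 72% for Bcl2l11. Of the 10 members 9 were matched to at least 1 of 14 windows. A match is a description of the letters and shows no binding.

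**Figure D1:**
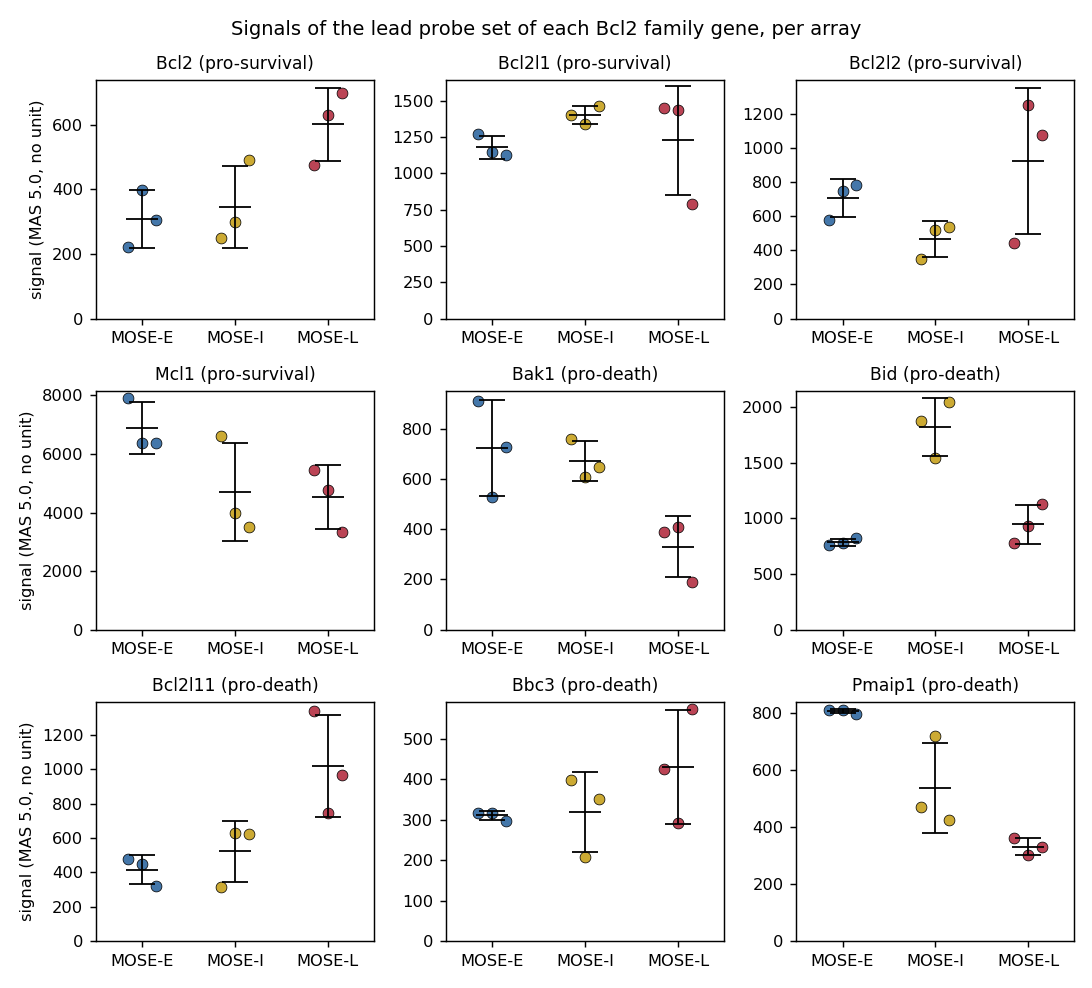
Array signal (MAS 5.0, linear, no unit) of the lead probe set of each of the 9 measured genes by stage, with 1 point per array, a bar at the mean and whiskers of 1 SD (n = 3). Bak1 and Pmaip1 lie lower and Bcl2l11 higher on every MOSE-L array than on any MOSE-E array, and Bid is highest on the 3 MOSE-I arrays. Each panel has its own axis, which starts at 0.

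Bcl2 itself, the founding member, which binds BH3-only proteins and Bax, was close to the filter. It passed only through 2 MOSE-L arrays, in the stage where it is high. Its signals were 221, 399 and 306 in MOSE-E, 249, 298 and 489.7 in MOSE-I, and 477, 630.3 and 697 in MOSE-L. Every MOSE-L array was above every MOSE-E array, while MOSE-I overlapped both. The mean was 601 ± 113 in MOSE-L and 308 ± 89.1 in MOSE-E (SD, n = 3), a log2 change of 0.88 ± 0.28 with an adjusted p of 0.0426, which met the p threshold but not the minimum change, so that Bcl2 was not called. Against MOSE-I the change was 0.75 (adjusted p 0.0691), and MOSE-I differed from MOSE-E by 0.13 (adjusted p 0.799). Fitted without a filter, the lead had the same change of 0.88 between MOSE-L and MOSE-E, with an adjusted p of 0.0829, over the threshold. The 4 other Bcl2 probe sets stayed under the filter, and fitted without a filter their changes between MOSE-L and MOSE-E were 0.19 to 1.01, with adjusted p of 0.0694 to 0.899.

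Bcl2l1, which encodes Bcl-xL, stayed at a similar level on 8 of the 9 arrays. It gave 1273, 1145 and 1128 in MOSE-E, 1400.3, 1339.8 and 1463 in MOSE-I, and 1452, 1439.8 and 792 in MOSE-L. The low value is that of MOSE-L replicate 3, the array that stood apart. The log2 change between MOSE-L and MOSE-E was 0.0052 (95% interval -0.49 to 0.50, adjusted p 0.988), and 0.28 (adjusted p 0.223) without that array. The 3 MOSE-I arrays lay above the 3 MOSE-E arrays, but the change of 0.24 did not pass (adjusted p 0.513). A second, dimmer probe set (1420887_a_at) had a change of 0.25 between MOSE-L and MOSE-E (adjusted p 0.585), and its lowest signal was also on MOSE-L replicate 3. The other 2, 1426191_a_at and 1426050_at, were under the filter, with changes of -0.30 and -0.056 without one.

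Bcl2l2 encodes Bcl-w, a close relative of Bcl-xL. Its signals were 577, 750.2 and 784 in MOSE-E, 347, 518 and 539 in MOSE-I, and 442, 1250.4 and 1078 in MOSE-L. MOSE-I lay below MOSE-E on every array, and MOSE-L held both a low and 2 high values. The change was 0.26 for MOSE-L over MOSE-E (95% interval -0.47 to 1.00, adjusted p 0.588), -0.55 for MOSE-I over MOSE-E (adjusted p 0.287) and, for MOSE-L over MOSE-I, 0.81 (adjusted p 0.0869). Without MOSE-L replicate 1 the last of these was 1.25 with an adjusted p of 0.00508, which would be called, so this comparison turned on 1 array. The 3 other Bcl2l2 probe sets were under the filter, and their MOSE-L over MOSE-E changes without one were 0.0090 to 0.87, with adjusted p of 0.204 to 0.993.

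Mcl1 encodes a short-lived pro-survival protein that binds Bak1, Bcl2l11 and Pmaip1. Its lead probe set gave 7905, 6382 and 6376 in MOSE-E, 6598, 3977 and 3502 in MOSE-I, and 5459, 4782 and 3347 in MOSE-L. All MOSE-L values lay below all MOSE-E values. The mean was 4529 ± 1079 in MOSE-L and 6887 ± 881 in MOSE-E (SD, n = 3), and the change of -0.62 ± 0.27 was not called (adjusted p 0.106).

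All 6 Mcl1 probe sets passed the filter, and they did not follow 1 course. The lead and 1416881_at lay lower on every MOSE-L than on any MOSE-E array, with changes of -0.62 and -0.72 (adjusted p 0.0495 for 1416881_at, short of the minimum change). For the other 4 the same changes were between -0.097 and 0.092, while their MOSE-I signals lay below all MOSE-E signals, with changes of -0.36 to -0.62 and adjusted p of 0.0609 to 0.231. Thus 1456243_x_at gave 3615, 4479.8 and 4586 in MOSE-E, 2550.1, 3002 and 2644 in MOSE-I, and 4662, 3804 and 3417 in MOSE-L. Of these 4, 3 carry the suffix x, which on this array marks probes that can match other transcripts. None of the 6 was called by limma in any comparison, where 15.0% (MOSE-L over MOSE-E), 5.73% (MOSE-I over MOSE-E) and 13.9% (MOSE-L over MOSE-I) of all probe sets were, and which of them tracks Mcl1 best was not tested.

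**Figure D2:**
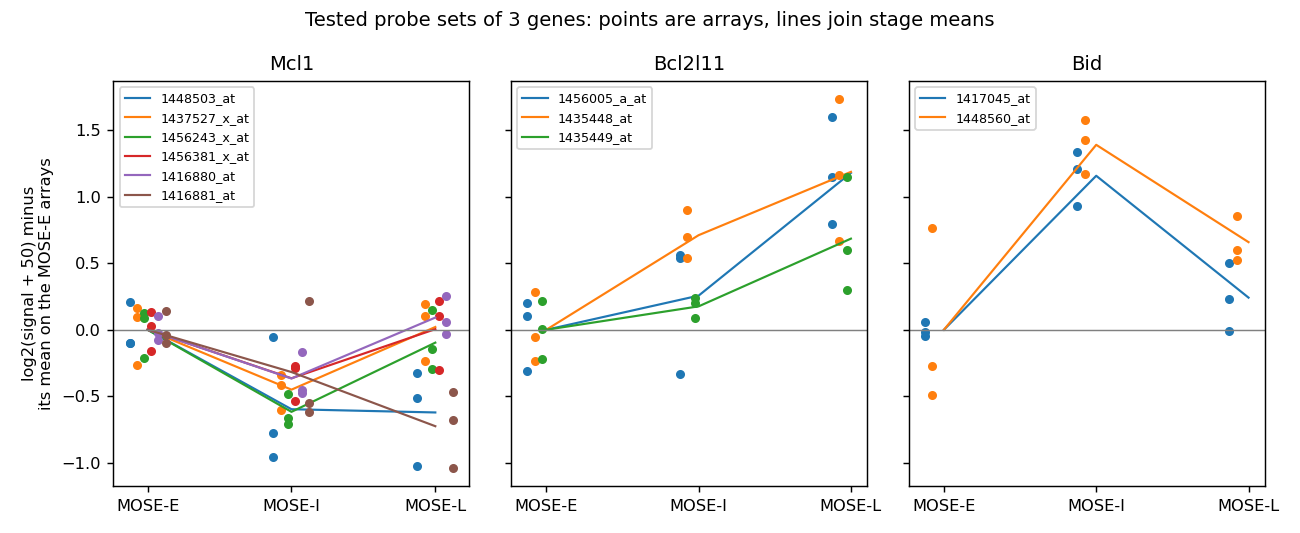
Log2(signal + 50) minus its mean on the MOSE-E arrays for every tested probe set of Mcl1, Bcl2l11 and Bid, with 1 point per array and lines joining the means of the 3 stages. The 6 Mcl1 lines part at MOSE-L, between -0.72 and 0.092, whereas the 3 Bcl2l11 lines are highest at MOSE-L and the 2 Bid lines peak at MOSE-I.

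The effector Bak1, whose protein oligomerises to open the outer mitochondrial membrane, fell in MOSE-L cells. Its signals were 911, 528 and 728 in MOSE-E, 758, 605 and 648 in MOSE-I, and 390.4, 408 and 190.0 in MOSE-L. The MOSE-L arrays lay below all 6 others, and MOSE-I overlapped MOSE-E. The mean was 329.5 ± 121 in MOSE-L and 722 ± 191 in MOSE-E (SD, n = 3), a log2 change of -1.05 ± 0.28 (95% interval -1.67 to -0.44, adjusted p 0.0197). The change between MOSE-L and MOSE-I was similar in size, at -0.98, but just under the minimum (adjusted p 0.0276), and MOSE-I differed from MOSE-E by -0.075 (adjusted p 0.883). The Bak1 call rested on MOSE-L replicate 3, without which the change was -0.75 (adjusted p 0.0454). It was also lost without MOSE-E replicate 1 (-0.88, adjusted p 0.0664) or MOSE-E replicate 3 (-1.03, adjusted p 0.0696). A second probe set, 1425716_s_at, stayed under the filter on all 9 arrays. Its change without a filter was -1.03 with an adjusted p of 0.147, and its lowest signal, 3.5, was again on MOSE-L replicate 3.

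Bid links death receptors to mitochondria, because caspase-8 cleaves its protein into an active fragment. It was called between MOSE-I and MOSE-E. The signals were 756, 776 and 820.1 in MOSE-E, 1872, 1541 and 2047 in MOSE-I, and 777, 929.8 and 1131 in MOSE-L. The 3 MOSE-I arrays stood above the other 6, and MOSE-L overlapped MOSE-E. The mean was 1819.8 ± 257 in MOSE-I and 784 ± 32.7 in MOSE-E (SD, n = 3), a log2 change of 1.16 ± 0.19 (95% interval 0.74 to 1.57, adjusted p 0.00742). In MOSE-L the signal was lower than in MOSE-I by a change of -0.91 ± 0.19, whose adjusted p of 0.00800 passed but whose size did not (called without MOSE-L replicate 3, at -1.05 with an adjusted p of 0.00608), and it differed from MOSE-E by 0.24 (adjusted p 0.360). The second tested probe set, 1448560_at, with 639, 469 and 569 in MOSE-I and 341, 141 and 115 in MOSE-E, had a change of 1.39 ± 0.32 (adjusted p 0.0265, called). In MOSE-L it gave 282, 367 and 299, which overlapped MOSE-E, with a change of 0.66 over MOSE-E (adjusted p 0.151). It passed the filter only through 2 MOSE-I arrays, the stage where it is high, so it adds no support to the lead. The remaining 1447873_x_at was under the filter, with a change of 0.30 (adjusted p 0.629). Without MOSE-E replicate 2 the adjusted p of the lead was 0.0502, and the call held when any other array was left out.

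Bcl2l11 encodes Bim, a BH3-only protein that binds all pro-survival members, and was called higher in MOSE-L cells. Its lead gave 481, 446 and 323 in MOSE-E, 316, 630.2 and 621 in MOSE-I, and 1342, 749 and 970.5 in MOSE-L. Every MOSE-L array was above every array of the other stages. The mean was 1020.4 ± 299.8 in MOSE-L and 416 ± 82.9 in MOSE-E (SD, n = 3), a log2 change of 1.18 ± 0.29 (95% interval 0.54 to 1.82, adjusted p 0.0143). Against MOSE-I the change was 0.92 (adjusted p 0.0387), short of the minimum.

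Of the other 4 Bcl2l11 probe sets, 2 passed the filter. For 1435448_at the signals were 1192, 545 and 788 in MOSE-L and 406, 312 and 269 in MOSE-E, and it was called at 1.19 ± 0.27 (adjusted p 0.00991). Unlike the lead, its MOSE-I signals of 494, 650 and 556 overlapped MOSE-L (0.48, adjusted p 0.196). They lay above every MOSE-E array (0.71, adjusted p 0.107, not called). With no MOSE-E array over 500, it passed the filter only through the stages where it is higher, as the lead did, so it adds no support to the lead. For 1435449_at the signals were 641, 334 and 423 in MOSE-L and 311, 263 and 217 in MOSE-E. MOSE-L and MOSE-E did not overlap, but the change of 0.68 was not called (adjusted p 0.0740). This probe set passed the filter only through MOSE-L replicate 1, in the stage where it is high. MOSE-L replicate 1 was the highest of all 9 arrays for each of the 3 probe sets. Without it the change of the lead was 0.97 (adjusted p 0.0414) and no longer called, and without MOSE-E replicate 3 it was 1.02 (adjusted p 0.0657). Without MOSE-L replicate 3 the change was 1.19 (adjusted p 0.0328). The remaining 2 probe sets were under the filter on all arrays and changed by 0.27 and 0.17.

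Bbc3 encodes Puma and Pmaip1 encodes Noxa, both known as targets of p53. Their lead signals had a correlation of -0.579 across the 9 arrays. Bbc3 gave 317, 317 and 298 in MOSE-E, 399, 208 and 350.4 in MOSE-I, and 427, 292 and 573 in MOSE-L. The groups overlapped in all 3 comparisons. The change between MOSE-L and MOSE-E was 0.37 (95% interval -0.26 to 1.00, adjusted p 0.357).

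Pmaip1, whose protein binds mainly Mcl1, fell in MOSE-L cells. Its signals were 811, 811 and 798 in MOSE-E, 469.5, 720.0 and 425 in MOSE-I, and 362, 303 and 329.7 in MOSE-L. No 2 stages overlapped, and the order was MOSE-E above MOSE-I above MOSE-L. The mean was 332 ± 29.6 in MOSE-L and 807 ± 7.31 in MOSE-E (SD, n = 3), a log2 change of -1.17 ± 0.21 (95% interval -1.63 to -0.71, adjusted p 0.00317). Neither single step was called, with -0.58 for MOSE-I over MOSE-E (adjusted p 0.0966) and -0.59 for MOSE-L over MOSE-I (adjusted p 0.0552). The call was kept when any 1 of the 9 arrays was left out, with -1.17 (adjusted p 0.00790) without MOSE-L replicate 3. Pmaip1 had 1 probe set, so no second one could be set beside it.

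**Figure D3:**
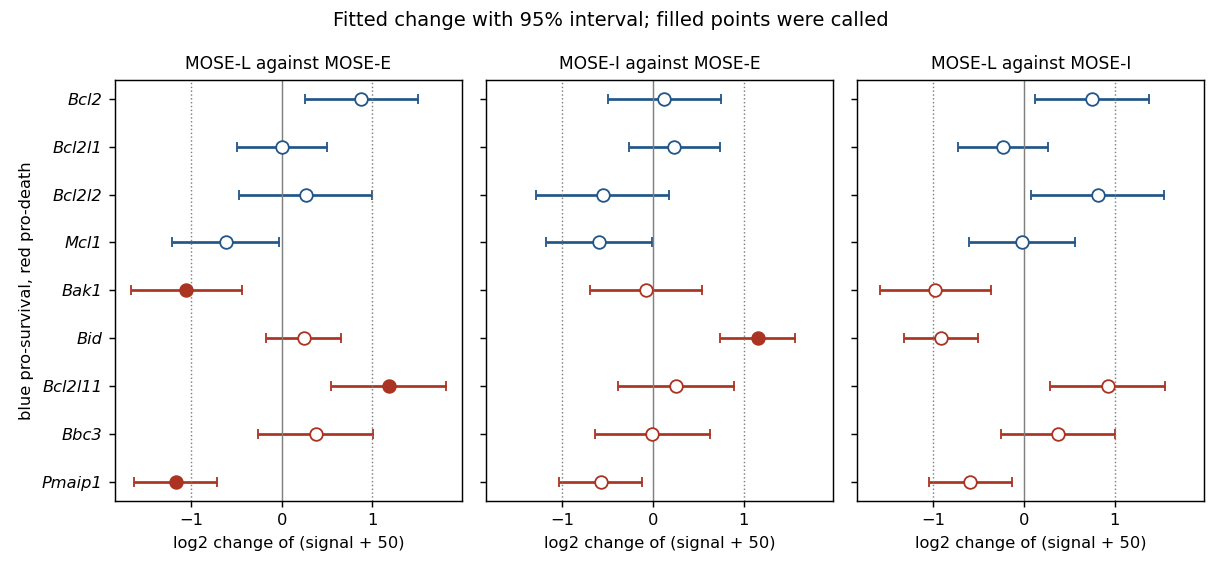
Fitted log2 change of (signal + 50) with its 95% interval for each of the 9 measured genes, pro-survival genes in blue and pro-death genes in red, with 1 panel for each of the 3 comparisons. Filled points were called and dotted lines mark the minimum change of 1 in size. The 4 filled points are those of Bak1, Bcl2l11 and Pmaip1 in MOSE-L against MOSE-E and of Bid in MOSE-I against MOSE-E.

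Counted over leads, 1 gene was called higher and 2 lower of the 9 between MOSE-L and MOSE-E, where 15.6% of all 7952 tested genes were called (8.11% higher and 7.49% lower). Groups did not overlap for 5 of the 9, against 44.8% of all genes. Between MOSE-I and MOSE-E the count was 1 of 9, where 5.90% of genes were called, and groups did not overlap for 4 of the 9, against 41.2%. Between MOSE-L and MOSE-I no member was called by limma, where 13.4% of genes were, although 6 of the 9 had an unadjusted p under 0.05 and the methods' t-test called 1. Groups did not overlap for 4 of the 9 there, against 44.2%. With 9 members these are counts only, and nothing particular to the family is read from them. Each pair of comparisons shares the 3 arrays of a stage, so their counts are not independent.

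Set against each other as classes, the pro-survival and pro-death genes had median changes between MOSE-L and MOSE-E that lay close together. The median log2 change was 0.13 over the 4 pro-survival genes (from -0.62 to 0.88) and 0.24 over the 5 pro-death genes (from -1.17 to 1.18), beside 0.031 over all tested genes. The first minus the second, -0.11, depended on the genes and arrays kept: it was 0.54 with a highest group mean over 500, -0.70 with a filter over 1000 and 0.079 without MOSE-L replicate 3. By limma 0 of the 4 pro-survival genes were called in any comparison, with 2 of them under an unadjusted p of 0.05 for MOSE-L over MOSE-E, 1 for MOSE-I over MOSE-E and 2 for MOSE-L over MOSE-I, and 0 by the methods' t-test. Of the 5 pro-death genes, 3 were called between MOSE-L and MOSE-E, 1 up and 2 down. Between MOSE-I and MOSE-E the medians were -0.21 for pro-survival and -0.0055 for pro-death genes, beside 0.034 over all genes. Between MOSE-L and MOSE-I they were 0.36 and -0.59, beside -0.018, with Bak1, Bid and Pmaip1 below and Bcl2l11 above MOSE-I on every MOSE-L array. Since the members were chosen with results known, no test of these class medians is given.

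The class medians differed most between arrays of MOSE-L. Taking each gene relative to its MOSE-E mean, the pro-survival median minus the pro-death median was -0.10, 0.020 and -0.0076 for MOSE-E replicates 1 to 3, -0.24, -0.050 and -0.17 for those of MOSE-I, and -0.0068, 0.61 and -0.48 for those of MOSE-L. The largest positive and the largest negative value thus came from 2 arrays of 1 stage, MOSE-L replicates 2 and 3. Bcl2l2 and Bcl2 lay above their MOSE-E means on both, by 0.80 and 0.96 on replicate 2 and by 0.59 and 1.09 on replicate 3. Other members differed more between these 2 arrays. Relative to its MOSE-E mean, Bcl2l1 was at 0.28 on replicate 2 and -0.55 on replicate 3, and Mcl1 at -0.51 and -1.02. Among pro-death genes, Bbc3 was at -0.076 and 0.79, Bid at 0.23 and 0.50, Bcl2l11 at 0.79 and 1.15, Bak1 at -0.72 and -1.66, and Pmaip1 at -1.28 and -1.17.

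**Figure D4:**
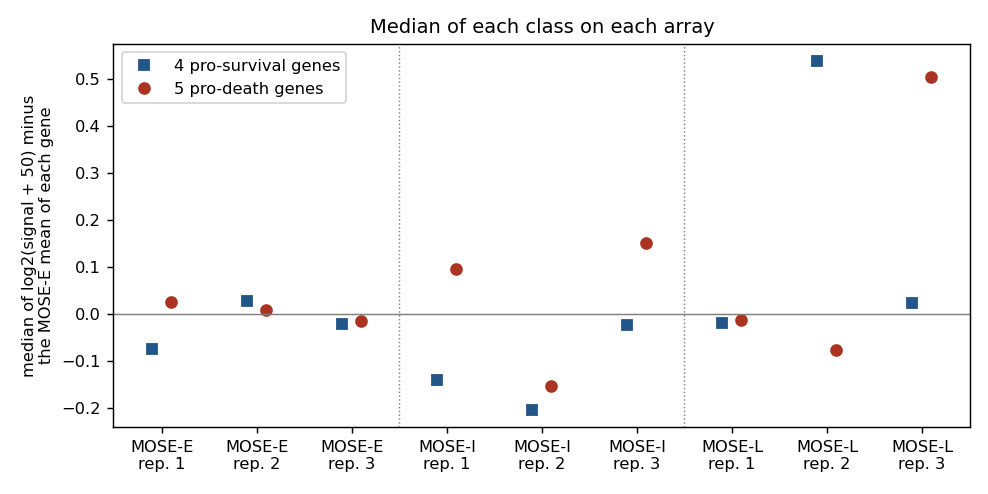
Median over the 4 pro-survival genes (squares) and over the 5 pro-death genes (circles) of log2(signal + 50) minus the mean of each gene on the MOSE-E arrays, for each of the 9 arrays in the order MOSE-E, MOSE-I, MOSE-L. The classes lie within 0.24 of each other on all MOSE-E and MOSE-I arrays, and on MOSE-L replicates 2 and 3 they part in opposite directions, by 0.61 and -0.48.

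Across the 9 arrays the members showed opposite as well as shared courses. The lead signals of Bak1 and Bcl2 had a Pearson correlation of -0.868 on the log2 scale, Pmaip1 and Bcl2 one of -0.771, and Bak1 and Bcl2l11 one of -0.737, whereas Bcl2 and Bcl2l11 had one of 0.701. Bid correlated with no other member beyond -0.522, its value with Mcl1. These describe 9 arrays that fall into 3 stages and share a scaling, and carry no test.

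The genes whose signals ran most like those of the called members, over the same 9 arrays, were mostly outside the apoptosis lists. For Bak1 they were Lrr1 (r = 0.982), Psmd6 (0.980), a subunit of the proteasome, and Uchl5 (0.977), a proteasome-bound deubiquitinase. For Bid they were Btrc (0.958), L3mbtl2 (0.951) and Ddx47 (0.942). Btrc encodes a ubiquitin ligase subunit and was itself on the list of turnover enzymes. For Bcl2l11 they were Tusc3 (0.980), Ccdc28b (0.969) and Parp11 (0.966), and for Pmaip1 the secreted protease gene Prss23 (0.976), Snx24 (0.973) and Capn2 (0.964), which encodes a calpain subunit. Prss23 had 31368, 41309 and 38826 in MOSE-E, 7158, 19145 and 9539.98 in MOSE-I, and 3035, 2971 and 2628 in MOSE-L.

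Around the family, 62 genes in 7 lists of the same pathway were examined, of which 39 passed the filter. Of the other Bcl2 family proteins 5 of 15 passed, and none was called between MOSE-L and MOSE-E by limma (3 under an unadjusted p of 0.05, and 0 by the methods' t-test). The brightest, Bok, an effector relative of Bak1, gave 922, 938 and 625 in MOSE-L and 1411, 1073 and 1079 in MOSE-E. Those groups did not overlap, and its change was -0.51 (adjusted p 0.0819). Bnip3, a hypoxia-responsive mitochondrial protein picked after its values were seen, was called higher in MOSE-I (1.89, adjusted p 0.0212), with 708, 1042 and 972 in MOSE-I and 186, 189.6 and 246 in MOSE-E.

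Downstream of the mitochondria, 5 of 10 genes of the apoptosome and caspases passed the filter, and none was called in any comparison by limma or the methods' t-test (3 under an unadjusted p of 0.05 for MOSE-L over MOSE-E, 1 for MOSE-I over MOSE-E and 2 for MOSE-L over MOSE-I). Cycs, which encodes cytochrome c, had a change of -0.35 between MOSE-L and MOSE-E (adjusted p 0.101). Of the inhibitor of apoptosis proteins and their antagonists, 6 of 7 passed and 1 was called between MOSE-L and MOSE-E. This was Birc5, which encodes survivin, a protein of dividing cells that also acts in chromosome segregation. It gave 7619, 6080.0 and 6524 in MOSE-E, 10404, 8891 and 10004 in MOSE-I, and 2775, 2456 and 242 in MOSE-L. All MOSE-L arrays were lowest, with replicate 3 far below the other 2, and the change between MOSE-L and MOSE-E was -2.41 (adjusted p 0.0236), or -1.34 (adjusted p 0.000911) without that array. Leaving out any 1 MOSE-E array instead ended this call (-2.32, adjusted p 0.0607 without MOSE-E replicate 1). Birc5 was also called lower in MOSE-L than in MOSE-I (-2.94, adjusted p 0.0122). That call held in 23 of 24 alternatives, among them leaving out each of the 9 arrays in turn.

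In the death receptor pathway 6 of 10 genes passed, and 1 was called between MOSE-L and MOSE-E. Fas, the receptor whose ligand starts caspase-8 activation, had signals of 418, 546 and 927 in MOSE-E, 73.2, 507 and 347 in MOSE-I, and 184, 86.0 and 266 in MOSE-L. MOSE-L lay below MOSE-E throughout, and the change was -1.58 with an adjusted p of 0.0493, a call that was lost in 12 of 23 alternatives, among them leaving out MOSE-E replicate 1 (-1.82, adjusted p 0.0584). Cflar, which encodes an inhibitor of caspase-8 activation and was picked after its values were seen, was higher in MOSE-L than in MOSE-I (1.13, adjusted p 0.00498), with 699, 1065 and 1062 in MOSE-L and 341, 454 and 401 in MOSE-I. Against MOSE-E the change was 0.74 (adjusted p 0.0238) and not called. The mitochondrial membrane partners, 7 of 8 tested, had 0 calls in any comparison by limma or the methods' t-test (1, 0 and 3 under an unadjusted p of 0.05, in the same order of comparisons), and the brightest, the channel gene Vdac2, changed by -0.10 between MOSE-L and MOSE-E (adjusted p 0.760).

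Among transcription regulators of the members, a list that holds Mdm2 beside transcription factors, 6 of 8 passed, and 1 was called between MOSE-L and MOSE-E. Ddit3 encodes Chop, a stress-response factor for which Bcl2l11 and Bcl2 are known targets. Its signals were 2274, 921 and 500.009 in MOSE-E, 1368, 1412 and 1297 in MOSE-I, and 5404, 2985 and 13913 in MOSE-L. All MOSE-L arrays were above all others, and replicate 3 was the highest by far. The change between MOSE-L and MOSE-E was 2.51 (adjusted p 0.00893), or 1.92 (adjusted p 0.0228) without that array, and that between MOSE-L and MOSE-I was 2.12 (adjusted p 0.0205), no longer called without it (1.53, adjusted p 0.0597), without MOSE-I replicate 1 (2.13, adjusted p 0.0560) or without MOSE-I replicate 3 (2.09, adjusted p 0.0615). Neither Ddit3 call was made by the methods' t-test with equal variances (unadjusted p 0.138 and 0.141). Foxo3, picked after its values were seen, changed by 0.98 between MOSE-L and MOSE-E (adjusted p 0.0134), just under the minimum. Of the 4 enzymes of member protein turnover all passed and none was called by limma between MOSE-L and MOSE-E (1 under an unadjusted p of 0.05, and 1 by the methods' t-test). Huwe1, which encodes a ubiquitin ligase for Mcl1, had a change of -0.24 (adjusted p 0.720). Fbxw7 of the same list, picked after its values were seen, changed by -0.94 (adjusted p 0.00917), just under the minimum. It gave 250, 388 and 397 in MOSE-L and 677, 704 and 712 in MOSE-E. Usp9x and Btrc changed by 0.26 and 0.24 (adjusted p 0.320 and 0.376).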

How the data were processed

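RNA of 9 MOSE cultures was hybridised to Affymetrix Mouse Genome 430 2.0 arrays. The authors computed the deposited values with the MAS 5.0 algorithm: linear intensity per probe set, scaled to a trimmed mean of 500, which the table shows on every array over the middle 96% of values. Of its 45101 probe sets 64 were controls and were left out, 34958 named 1 gene, 932 several and 9211 none.

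Groups came from the sample titles, with 3 arrays per stage, whose number limits the precision. Signals were taken as log2(signal + 50), and 32.4% of all signals lay under 50. The 13845 probe sets whose highest signal exceeded 500 were fitted with 1 mean per stage in limma 3.58.1 under R 4.3.3, with a variance trend (residual degrees of freedom 6, median prior degrees 4.9). Within each of the 3 comparisons, p-values were adjusted over all 13845 by Benjamini-Hochberg. A gene took its brightest tested probe set. No batch is named in the sources used here.

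The members, lists and tests were chosen with earlier results of these data known. The text names all members, the tested probe sets that bear on them and counts of the rest; of each other list, up to 4 called genes with the largest MOSE-L over MOSE-E change, or its brightest gene where none was called; and the 3 genes most correlated with each called member. Genes that no probe set names alone, Bax among them, were not analysed here. Promoter windows are RefSeq's for GRCm38.p6, matched by symbol.

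The replicate numbers were checked for pairing. Deviations of same-numbered arrays from their stage means correlated at -0.113 to 0.41, and those of differently numbered arrays at -0.493 to 0.241. Between MOSE-E and MOSE-L the same-numbered values were 0.41, 0.262 and 0.0189. These values do not settle whether the numbers mark pairs. The arrays were not treated as pairs, and a replicate block was tried as an alternative. The script was tested on simulated data with known changes between MOSE-L and MOSE-E. It called 32 of 100 probe sets changed 2 fold on the log2 scale of the fit, a size at the minimum for a call. It called 86 of 100 changed 4 fold. Of 13645 unchanged probe sets it called 5. So few changed probe sets make the adjustment stricter than in the data, where 15.0% were called between MOSE-L and MOSE-E. The simulated rates therefore do not carry over to the data. Deviations shared by a whole array, as on MOSE-L replicate 3, were not tested in this way. A gene that is not called can still have changed by about the minimum. The alternatives tried were adding 1 or 200 before the log, quantile or median scaling of the arrays, a filter of 1000, of 500 for the highest group mean, or none, no variance trend, a fit to 2 stages at a time, a replicate block, no minimum fold, the mean over a gene's probe sets, the methods' t-test on linear signals with a ratio of at least 2, and leaving out each array in turn.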

Additional observations from a re-analysis of the deposited data

How the results depend on the processing

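No called member changed direction under any alternative run. Of 633 member values recomputed, 603 stayed on the same side of the thresholds, 13 lost a call and 17 gained one, and 23 changed sign while not called. Between MOSE-L and MOSE-E the count of members called, 3, was 0 with an added value of 200, 1 with a filter over 1000 (which keeps 5 of the 9 genes), 1 by the methods' t-test after adjustment, and 1 to 3 with 1 array left out (1 without MOSE-E replicate 3). Between MOSE-I and MOSE-E the count of 1 was 0 by the adjusted t-test and 0 to 1 with 1 array left out (0 without MOSE-E replicate 2). Between MOSE-L and MOSE-I the count of 0 was 1 with an added value of 1, quantile normalization, median centring or either unadjusted t-test (Bak1 each time), 3 with no minimum fold, and 0 to 2 with 1 array left out: 2 without MOSE-I replicate 2, MOSE-L replicate 1 or MOSE-L replicate 2, and 1 without MOSE-L replicate 3. Bcl2 was called between MOSE-L and MOSE-E without MOSE-L replicate 1 (1.02, adjusted p 0.0364). The Pmaip1 call held in 22 of 23 alternatives, Bid in 22 of 24, Bcl2l11 in 19 of 24 and Bak1 in 18 of 23.

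The median of the pro-survival genes minus that of the pro-death genes was -0.11 between MOSE-L and MOSE-E, -0.21 between MOSE-I and MOSE-E and 0.96 between MOSE-L and MOSE-I. With a filter over 1000 these were -0.70, -1.26 and -0.028, and with a highest group mean over 500 the first 2 were 0.54 and -0.30. These filters take genes out of the medians. With 1 array left out they ran from -0.31 to 0.079, from -0.37 to 0.094 and from 0.67 to 1.09. The sign of the first turned without MOSE-L replicate 3 and that of the second without MOSE-I replicate 1. The share of tested probe sets called between MOSE-I and MOSE-E, 5.73%, ran from 0.917% (without MOSE-E replicate 3) to 8.96% (without MOSE-E replicate 1). With the replicate number as a block the counts of members called were 3, 1 and 0 in the 3 comparisons, as without the block, and the share called between MOSE-I and MOSE-E was 6.32%. The number of arrays limits what could be seen: the 95% interval of Bcl2l2 between MOSE-L and MOSE-E, -0.47 to 1.00, spans changes up to the minimum for a call. Bcl2 and Bbc3 lay close to the filter on signal.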
